A study of Mus musculus with 24 samples.

Results

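The genes that make, carry, remove and sense extracellular adenosine were followed through ischemia, preconditioning and reperfusion of the mouse heart. They comprised the enzymes Entpd1 and Nt5e, the receptors Adora1, Adora2a, Adora2b and Adora3, the transporters Slc29a1 and Slc29a2, and the removing enzymes Ada and Adk. The genes were chosen by name, as members of a known route of preconditioning upstream of Per2, and each was read from the probe set paired with its symbol alone. Earlier results of these data were known when the genes were chosen. Of the 10 genes, 6 had such a probe set, 1 each, among the 18820 genes tested. The probe set that reads Adora3 is paired with Tmigd3 as well, and Adora1, Adora2a, Adora2b and Adora3 are not analysed here.

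Left ventricles of 24 male mice, 1 heart per array, were profiled on Affymetrix arrays, and the values are log2 intensities. Wildtype and Per2-/- mice, both labelled as strain BL6C57 and aged 12 to 16 weeks according to the methods, were studied at zeitgeber time 0, the time of lights on. Each genotype had 3 sham-operated hearts (labelled untreated), 3 hearts with 30 minutes of ischemia and no reperfusion (I30), 3 preconditioned hearts (IP0) that went through 4 cycles, each with 5 minutes of occlusion and 5 minutes of flow, and 3 hearts reperfused for 60 minutes after 30 minutes of occlusion (I30R60). Ischemia was made by occluding the left coronary artery in anesthetized, ventilated mice. The paper calls the control hearts sham operated and does not describe their procedure or its duration. How far they share the anesthesia and surgery is therefore not known here. The Per2-/- mice carry the mutation in every tissue, so that a difference between genotypes is not one of heart muscle alone.

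Extracellular adenosine is made in steps. Cells under stress release ATP, the ectonucleotidase CD39 (Entpd1) cuts it to AMP, and the ecto-5'-nucleotidase CD73 (Nt5e) turns AMP into adenosine, which then acts on G protein-coupled receptors that raise or lower cAMP. The equilibrative transporters Slc29a1 and Slc29a2 carry adenosine across the cell membrane along its gradient, adenosine deaminase (Ada) converts it to inosine, and adenosine kinase (Adk) returns it to AMP inside the cell.

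In these hearts, the group means of Entpd1 and Ada were highest after reperfusion. Both rose in Per2-/- I30R60 hearts against Per2-/- sham hearts, Entpd1 by 0.65 on the log2 scale and Ada by 1.19. With the genotypes averaged, both rose and Slc29a2 fell by 0.48 after I30R60. Nt5e, Slc29a1 and Adk passed the test in no comparison of the fit to all arrays. The responses of the 6 genes to each protocol did not pass the test of a difference between wildtype and Per2-/- hearts.

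The sequences just before the start sites of Entpd1 and Ada are shown because these are the 2 genes that rose in Per2-/- hearts after reperfusion. They come from the RefSeq tables of build GRCm38.p6, in which all 6 measured genes had an entry, with 15 start sites in all. Each line gives the 250 bases before a start site on the strand of the gene, 5' to 3', with motif matches in capitals.
Entpd1, start site 1, chr19:40612116-40612365, plus strand: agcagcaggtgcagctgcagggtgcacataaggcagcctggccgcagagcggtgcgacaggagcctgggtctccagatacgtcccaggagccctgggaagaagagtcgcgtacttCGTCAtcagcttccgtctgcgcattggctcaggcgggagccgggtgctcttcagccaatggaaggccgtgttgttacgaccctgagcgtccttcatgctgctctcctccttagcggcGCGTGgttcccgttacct
Entpd1, start site 2, chr19:40659520-40659769, plus strand: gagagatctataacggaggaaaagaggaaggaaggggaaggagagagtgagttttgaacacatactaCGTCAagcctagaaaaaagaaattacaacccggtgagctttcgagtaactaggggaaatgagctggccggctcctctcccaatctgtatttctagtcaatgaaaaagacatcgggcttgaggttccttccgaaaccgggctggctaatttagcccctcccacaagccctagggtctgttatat
Ada, chr2:163750240-163750489, minus strand: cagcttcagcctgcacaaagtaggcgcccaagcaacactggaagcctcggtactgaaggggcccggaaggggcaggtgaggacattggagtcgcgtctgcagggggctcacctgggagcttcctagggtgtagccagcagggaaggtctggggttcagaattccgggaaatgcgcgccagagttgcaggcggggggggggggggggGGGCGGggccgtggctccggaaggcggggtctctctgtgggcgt
The motifs were searched on both strands. Start site 1 of Entpd1 holds 1 match to GCGTG, one of the cores of the hypoxia response element, which 28.2% of the 32851 promoter windows of the same length hold. Each Entpd1 window also holds 1 match to TGACG, the core of the cAMP response element, written here as CGTCA because it lies on the other strand, and 17.8% of all windows hold it. The Ada window holds 1 GC box, GGGCGG, found in 32.7% of all windows. Neither gene's windows held the other hypoxia core ACGTG (16.6% of all windows), the E-box CACGTG (6.02%), to which clock proteins bind, the full cAMP response element TGACGTCA (1.55%) or the AP-1 site TGANTCA (6.75%). The ACGTG core lies within the E-box.

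Values of the whole series frame what follows. The median of all log2 values was 4.44, the median SD between hearts of a group was 0.172, and 3 hearts per group limit the precision. Changes were tested with limma over all 24 arrays, with p values adjusted over all 18820 genes, and a gene was called at an adjusted p under 0.05. All comparisons with sham within a genotype use the same 3 sham hearts and are therefore not independent. The heart muscle markers were present in all hearts, with a summed linear intensity of 5 genes between 36744 and 41001. Atrial muscle transcripts were uneven, with 4 arrays high in Myl7, the atrial myosin light chain (log2 values of 11.21, 9.12, 8.24 and 5.22). Lung epithelium transcripts were high in wildtype I30 hearts, where the surfactant gene Sftpc had log2 values of 6.72, 5.49 and 4.22. The Per2 probe set had log2 values of 5.33 to 6.10 in wildtype sham hearts and 5.63 to 5.69 in Per2-/- sham hearts. Whether this probe set lies in the deleted part of the gene is not given in the sources used here, so that it does not check the genotype labels. No batch is labelled, and the design text states that the arrays were run together.

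**Figure D1:**
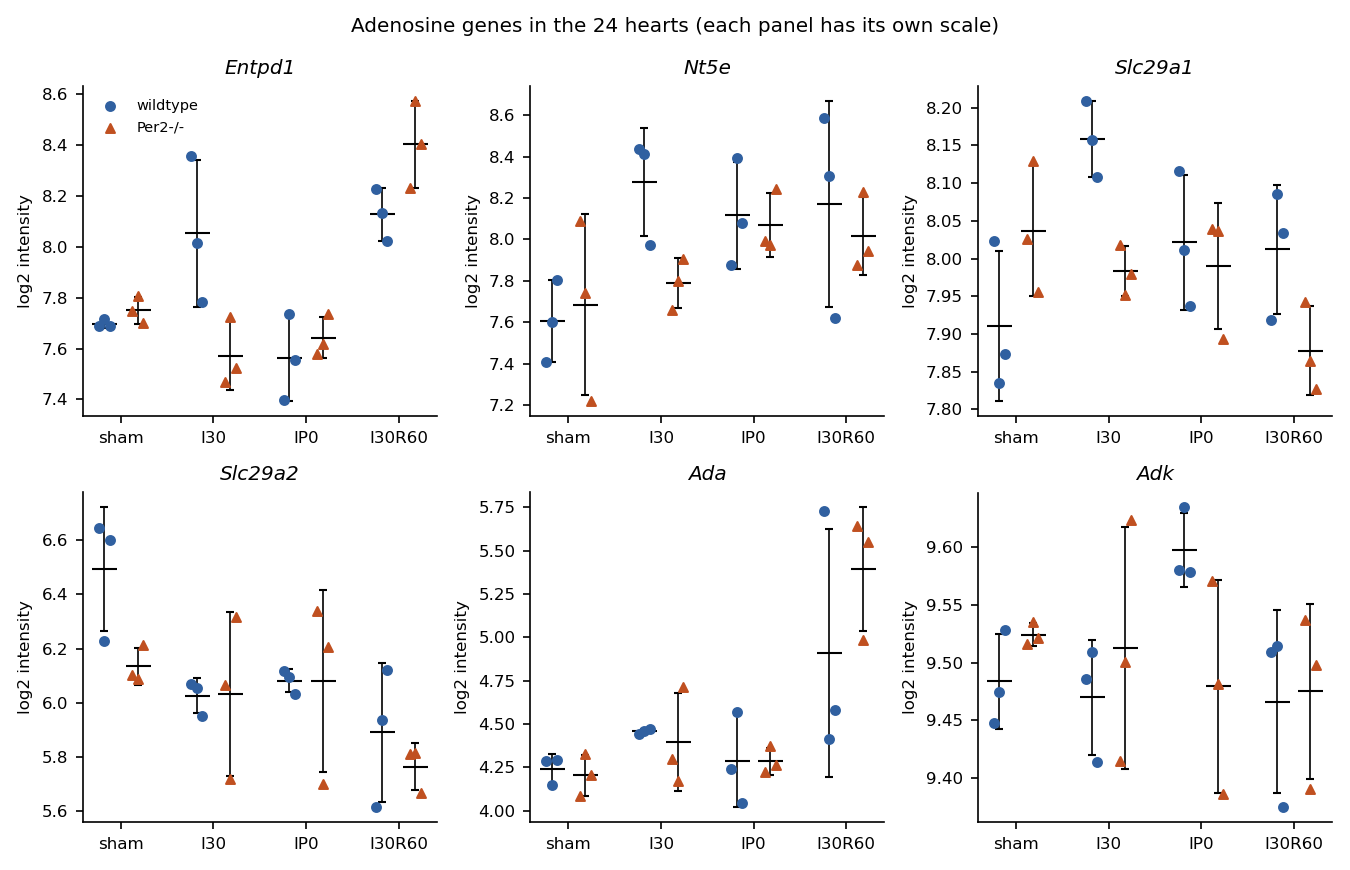
Log2 intensity (vertical axes, a separate scale in each panel) of the 6 measured genes in sham, I30, IP0 and I30R60 hearts (horizontal axes). Points are single hearts, in the 2 genotypes, with 3 hearts per group, and bars are group means. The means of Entpd1 and Ada are highest in Per2-/- I30R60 hearts, and Adk stays between 9.37 and 9.63.

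Entpd1, the first enzyme of adenosine production, was higher in every reperfused heart than in any sham heart. In wildtype sham hearts it had log2 values of 7.69, 7.72 and 7.69, and in Per2-/- sham hearts 7.75, 7.81 and 7.70. After I30R60 it had values of 8.23, 8.13 and 8.02 in wildtype and 8.23, 8.57 and 8.40 in Per2-/- hearts. The lowest reperfused heart thus lay above the highest sham heart of both genotypes. The change was 0.65 in Per2-/- hearts (SE 0.12, 95% interval 0.40 to 0.91, adjusted p = 0.00271), a 1.57-fold rise. In wildtype hearts the change was 0.43 (SE 0.12, 95% interval 0.18 to 0.68), which did not pass the test (adjusted p = 0.0708). The difference between these 2 changes was 0.22 (95% interval -0.14 to 0.58, adjusted p = 0.969). With the genotypes averaged, Entpd1 rose by 0.54 (SE 0.09, adjusted p = 0.000282).

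Without reperfusion, the Entpd1 values of the genotypes lay apart. Wildtype I30 hearts had log2 values of 8.36, 8.02 and 7.78, and Per2-/- I30 hearts had 7.47, 7.73 and 7.52. The wildtype hearts spread widely, and their lowest value lay only just above the highest Per2-/- value. Per2-/- hearts were lower by 0.48 (SE 0.12, 95% interval -0.74 to -0.23 for the log2 difference), which did not pass the test (adjusted p = 0.0806). With 1 array left out at a time the difference passed in 1 of 24 cases. It was -0.62 without wildtype I30 replicate 3, the lowest of its group (adjusted p = 0.0197), and -0.33 without replicate 1, the highest (adjusted p = 0.325). Against sham hearts the change after I30 was 0.36 in wildtype (SE 0.12, adjusted p = 0.117) and -0.18 in Per2-/- hearts (SE 0.12, adjusted p = 0.785). The wildtype change was 0.20 without replicate 1 (adjusted p = 0.407) and 0.49 without replicate 3 (adjusted p = 0.0466). Wildtype I30 replicate 1 had the highest Entpd1 value of its group and the highest sums of lung epithelium markers (313, against 122 and 70.1 in the other 2 hearts) and neutrophil markers (429, against 181 and 131). Its sum of macrophage markers was the highest of the group too (1547, against 1391 and 1213). The part of these transcripts in the Entpd1 values was not tested.

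After preconditioning, Entpd1 had log2 values of 7.40, 7.74 and 7.55 in wildtype hearts and 7.58, 7.62 and 7.73 in Per2-/- hearts. These overlapped the sham values in both genotypes. Within wildtype hearts, Entpd1 fell by 0.49 from I30 to IP0 on the log2 scale (SE 0.12, adjusted p = 0.0329) and was higher by 0.56 in I30R60 than in IP0 hearts (SE 0.12, adjusted p = 0.0251). The call between I30 and IP0 was lost without any one of wildtype I30 replicates 1 and 2 and wildtype IP0 replicates 1 and 3 (adjusted p = 0.0611 to 0.145). The call between IP0 and I30R60 was lost without any one of wildtype IP0 replicates 1 and 3 and wildtype I30R60 replicates 1 and 2 (adjusted p = 0.0557 to 0.133). In Per2-/- hearts, Entpd1 was higher in I30R60 than in I30 by 0.83 (SE 0.12, adjusted p = 0.000246) and than in IP0 by 0.76 (SE 0.12, adjusted p = 0.00145).

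By group mean, Entpd1 was lowest in wildtype IP0 hearts with a log2 value of 7.56 ± 0.17 (SD, n = 3 here and below). Per2-/- I30 (7.57 ± 0.14), Per2-/- IP0 (7.64 ± 0.08), wildtype sham (7.70 ± 0.02) and Per2-/- sham hearts (7.75 ± 0.05) followed. The upper groups were wildtype I30 (8.05 ± 0.29), wildtype I30R60 (8.13 ± 0.10) and Per2-/- I30R60 hearts (8.40 ± 0.17). Each group overlapped its neighbour in this order, apart from the 2 I30R60 groups, which were 8.02 to 8.23 and 8.23 to 8.57. The genotypes differed after I30R60 by 0.28 (SE 0.12, adjusted p = 0.557), which did not pass the test.

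Nt5e, which makes the last step to adenosine, had a wider spread. Its log2 values were 7.41, 7.60 and 7.81 in wildtype sham hearts and 8.44, 8.41 and 7.97 in wildtype I30 hearts. The wildtype IP0 hearts had 7.88, 8.39 and 8.08, so that all 6 of these treated hearts lay above the sham hearts. The changes of 0.67 after I30 (SE 0.22, 95% interval 0.21 to 1.13, adjusted p = 0.106) and 0.51 after IP0 (SE 0.22, 95% interval 0.05 to 0.97, adjusted p = 0.353) did not pass the test. The wildtype I30 hearts had lung epithelium sums of 313, 122 and 70.1, in the order of their Nt5e values. Their neutrophil sums (429, 181 and 131) and macrophage sums (1547, 1391 and 1213) had the same order. The part of these transcripts in the Nt5e values was not tested. Wildtype I30R60 hearts had log2 values of 8.59, 8.31 and 7.62, and the lowest of them lay within the sham range. The change of 0.57 there (SE 0.22, adjusted p = 0.239) did not pass the test. It rested on single hearts, with 0.36 without replicate 1, the highest (adjusted p = 0.661), and 0.84 without replicate 3, the lowest (adjusted p = 0.0427), the 1 left-out array of 24 with which it passed.

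In Per2-/- hearts the sham values of Nt5e spanned 7.22 to 8.09, and the 9 treated hearts lay between 7.66 and 8.25. The I30 (7.66 to 7.90) and IP0 (7.97 to 8.25) hearts did not overlap each other, and their difference of 0.28 did not pass the test (adjusted p = 0.67). The group means of Nt5e ran from 7.61 ± 0.20 in wildtype sham hearts through 7.68 ± 0.44 in Per2-/- sham and 7.79 ± 0.12 in Per2-/- I30 hearts to 8.28 ± 0.26 in wildtype I30 hearts. Means of the other 4 groups lay from 8.02 to 8.17, with overlapping ranges. With the genotypes averaged, the change after I30R60 was 0.45 (SE 0.16, adjusted p = 0.0800). It passed in 3 of 33 alternatives, with genes above the median value only (adjusted p = 0.0461), without wildtype I30R60 replicate 3 (0.59, adjusted p = 0.0123) and without Per2-/- sham replicate 1 (0.55, adjusted p = 0.0332), and was 0.23 without the 4 arrays high in Myl7 (adjusted p = 0.586). In Per2-/- hearts the change after I30R60 of 0.33 was 0.10 without sham replicate 3 and 0.53 without sham replicate 1, and passed in neither case (adjusted p = 0.89 and 0.26).

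The transporter Slc29a1, known as ENT1, varied little. Its log2 values were 7.84 to 8.02 in wildtype sham hearts and 8.11 to 8.21 in wildtype I30 hearts, which lay above all of the sham hearts. The change was 0.25 (SE 0.08, 95% interval 0.09 to 0.41) and did not pass the test (adjusted p = 0.0891). In these wildtype I30 hearts, Slc29a1 values of 8.21, 8.16 and 8.11 stood beside lung epithelium sums of 313, 122 and 70.1. Neutrophil sums (429, 181 and 131) and macrophage sums (1547, 1391 and 1213) of these hearts had the same order. The part of these transcripts in the Slc29a1 values was not tested. Per2-/- I30 hearts had values of 7.95 to 8.02, within the range of 7.96 to 8.13 of Per2-/- sham hearts except for 1 heart just below it. Per2-/- I30R60 hearts had 7.83 to 7.94, below all Per2-/- sham hearts, and the change of -0.16 did not pass the test (SE 0.08, adjusted p = 0.286). In IP0 hearts of both genotypes the values lay between 7.89 and 8.12.

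Slc29a2, known as ENT2, was highest in wildtype sham hearts, where it had log2 values of 6.64, 6.23 and 6.60. The reperfused wildtype hearts had 5.61, 5.94 and 6.12, all below the sham hearts, with a change of -0.60 (SE 0.16, 95% interval -0.93 to -0.27) that just missed the test (adjusted p = 0.0509). In Per2-/- hearts the values were 6.10, 6.09 and 6.21 in sham and 5.81, 5.82 and 5.67 in I30R60 hearts, again without overlap, and the change was -0.37 (SE 0.16, adjusted p = 0.224). With the genotypes averaged, Slc29a2 fell by 0.48 (SE 0.11, adjusted p = 0.0086). Without the 4 arrays high in Myl7, of which 2 are wildtype sham hearts, the averaged change was -0.52 (adjusted p = 0.0618).

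Slc29a2 was also lower in the other treated wildtype hearts. Its log2 values were 6.07, 6.06 and 5.95 after I30 and 6.12, 6.10 and 6.03 after IP0, all below the lowest sham value. The changes of -0.47 (SE 0.16, adjusted p = 0.118) and -0.41 (SE 0.16, adjusted p = 0.284) did not pass the test. In Per2-/- I30 and IP0 hearts the values ranged from 5.70 to 6.34, on both sides of the Per2-/- sham hearts. The Per2-/- sham hearts lay below the wildtype sham hearts by 0.36, with no overlap (6.21 against 6.23 at the nearest), and this difference did not pass the test either (SE 0.16, adjusted p = 0.636).

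Ada had the largest rise of the 6 genes, from low values. Its log2 values were 4.29, 4.15 and 4.29 in wildtype sham and 4.09, 4.33 and 4.21 in Per2-/- sham hearts, below the median of all values. Per2-/- I30R60 hearts had 5.64, 4.99 and 5.55, all above every heart of the sham, I30 and IP0 groups. The rise was 1.19 (SE 0.24, 95% interval 0.69 to 1.69, adjusted p = 0.00505), or 2.28-fold on this scale, and a low probe set can understate a fold. Among wildtype I30R60 hearts 1 heart stood apart, with 5.73 in replicate 1 and 4.42 and 4.58 in the other 2 hearts. Their change was 0.66 (SE 0.24, 95% interval 0.16 to 1.16, adjusted p = 0.188) and did not pass the test.

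The difference between the changes of Ada in the 2 genotypes was 0.52 (SE 0.34, 95% interval -0.19 to 1.23, adjusted p = 0.957). Wildtype I30R60 replicate 1 set much of the wildtype value: without it the wildtype change was 0.26 (adjusted p = 0.697) and the difference 0.93 (adjusted p = 0.531), and without replicate 2 the difference was 0.27 (adjusted p = 0.969). With the genotypes averaged, Ada rose by 0.93 after I30R60 (SE 0.17, adjusted p = 0.00114), and by 0.72 to 1.05 under 33 alternatives, all of which passed the test. Ada was also higher in Per2-/- I30R60 hearts than in Per2-/- I30 hearts by 1.00 (SE 0.24, adjusted p = 0.0166) and than in Per2-/- IP0 hearts by 1.11 (SE 0.24, adjusted p = 0.0152). The call against I30 was lost without any one of Per2-/- I30 replicates 1 and 2 and Per2-/- I30R60 replicates 1 and 3 (adjusted p = 0.0605 to 0.0848). The call against IP0 was lost without any one of Per2-/- IP0 replicates 1 and 3 and Per2-/- I30R60 replicates 1 and 3 (adjusted p = 0.0504 to 0.0831).

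After ischemia alone or preconditioning, Ada stayed near its sham values. Wildtype I30 hearts had log2 values of 4.44, 4.46 and 4.47, just above their sham hearts, a change of 0.22 (SE 0.24, adjusted p = 0.649). Per2-/- I30 hearts had 4.30, 4.17 and 4.71, wildtype IP0 hearts 4.24, 4.57 and 4.05, and Per2-/- IP0 hearts 4.22, 4.37 and 4.26. These 3 groups overlapped their sham hearts. In the order of group means, Ada had 4.21 ± 0.12 in Per2-/- sham, 4.24 ± 0.08 in wildtype sham, 4.29 ± 0.27 in wildtype IP0, 4.29 ± 0.08 in Per2-/- IP0, 4.39 ± 0.28 in Per2-/- I30 and 4.46 ± 0.01 in wildtype I30 hearts. The I30R60 hearts were at the top, with 4.91 ± 0.71 in wildtype and 5.39 ± 0.36 in Per2-/- mice, and their ranges overlapped.

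Adk, the other enzyme that removes adenosine, had the narrowest range, 9.37 to 9.63 over the 24 hearts. Its changes against sham lay between -0.05 and 0.11 in the 6 comparisons of a treatment with sham hearts, and the 95% interval after I30R60 was -0.17 to 0.13 in wildtype and -0.20 to 0.10 in Per2-/- hearts. The wildtype IP0 hearts, at 9.58, 9.63 and 9.58, all lay above the wildtype sham hearts at 9.45, 9.47 and 9.53, with a change of 0.11 (SE 0.07, adjusted p = 0.582) that did not pass the test.

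**Figure D2:**
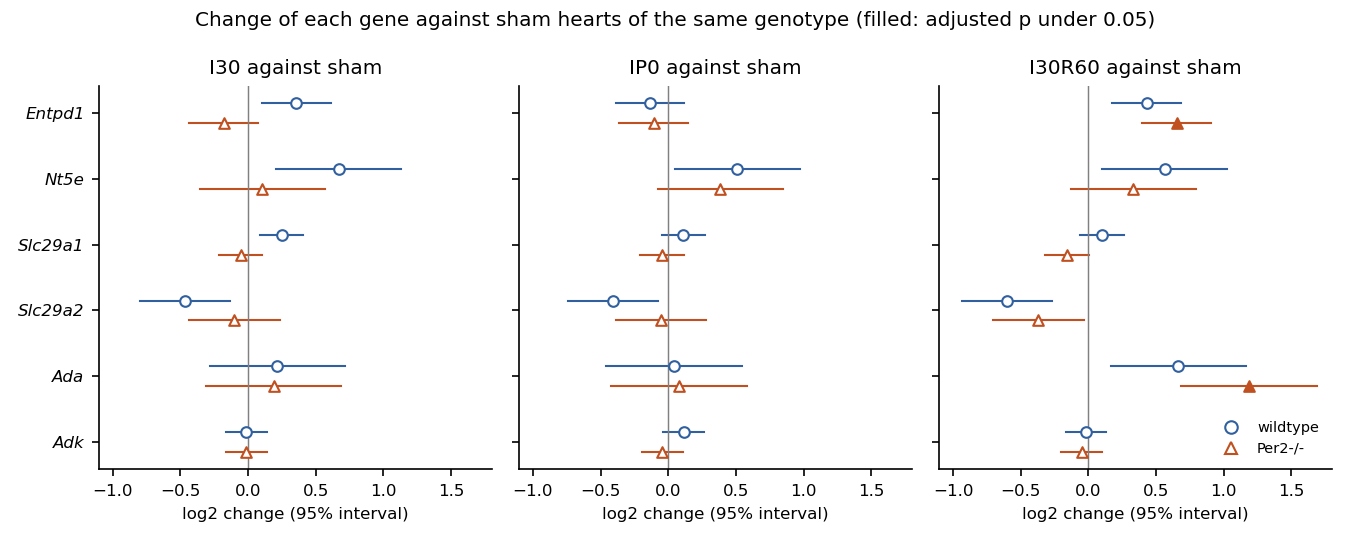
Log2 change of each gene against sham hearts of the same genotype (horizontal axes) with its 95% interval, in panels for I30, IP0 and I30R60. Filled symbols passed the test at an adjusted p under 0.05, which only Entpd1 (0.65) and Ada (1.19) did, in Per2-/- I30R60 hearts.

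The counts of these genes can be set beside those of all genes tested. In Per2-/- I30R60 against sham hearts 2 of the 6 genes were called, against 4.79% of all genes, and with the genotypes averaged 3 of 6, against 9.34%. In wildtype hearts 0 of 6 were called against sham after I30 (2.39% of all genes), IP0 (0.85%) or I30R60 (2.47%). In limma without adjustment, 4, 2 and 4 of the 6 genes had a p under 0.05 in these comparisons. These counts use a looser threshold than the percentages of all genes just given and cannot be set against them. The shares of all genes at the looser threshold are not given here, so that the counts are no result about the 6 genes. In Per2-/- hearts 0 of 6 were called after I30, where limma called 0.0% of all genes (1343 genes at an unadjusted p under 0.05, none of them among the 6), and 0 of 6 after IP0 (0.159%). With the genotypes averaged, 0 of 6 were called after I30 (1.61%) and after IP0 (1.94%).

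Between protocols, 1 of 6 was called in wildtype hearts from I30 to IP0 (3.0% of all genes) and 1 of 6 between IP0 and I30R60 (1.24%), both times Entpd1, and 0 of 6 between I30 and I30R60 (5.49%). In Per2-/- hearts 2 of 6 were called between I30 and I30R60 (5.4%) and 2 of 6 between IP0 and I30R60 (2.87%), Ada and Entpd1 in each, and 0 of 6 between I30 and IP0 (0.175%). The genotypes differed in 0 of 6 genes in sham (0.266%), I30 (0.664%), IP0 (0.0797%) and I30R60 hearts (0.175%), and in 0 of 6 over all treatments (1.88%). limma called the interaction of genotype and treatment for 0 of 6 genes and 0.0% of all genes after I30, IP0 and I30R60, with 1336, 905 and 1034 genes at an unadjusted p under 0.05. Of the 6 genes, 2, 0 and 1 were among them. The median log2 change of the 6 genes was 0.14 in Per2-/- I30R60 hearts and 0.27 in wildtype I30R60 hearts, against -0.04 and -0.02 over all genes tested.

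Entpd1 is known from endothelium and leukocytes and Ada from leukocytes, and neutrophil transcripts were high in the same reperfused hearts. In a heart sample, more cells of a type and more RNA per cell cannot be told apart. Of 7 neutrophil markers, 5 rose in Per2-/- I30R60 hearts (S100a8, S100a9, Retnlg, Cxcr2 and Mmp8) and 1, Mmp8, rose in wildtype I30R60 hearts. Of all genes tested, 4.79% and 2.47% were called in these 2 comparisons with sham. The summed linear intensity of the 7 markers was 118 to 136 in wildtype sham, 79.0 to 100.5 in Per2-/- sham, 185 to 450 in wildtype I30R60 and 237 to 416 in Per2-/- I30R60 hearts. The defining markers S100a8 and S100a9 had log2 values of 5.21 to 5.68 and 5.90 to 6.80 in Per2-/- I30R60 hearts. These values carry no detection calls.

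Heart by heart, the wildtype I30R60 heart with the Ada value of 5.73 had the highest neutrophil sum of the series, 450, and the other 2 hearts of its group had 199 and 185. The Per2-/- I30R60 heart with the lowest Ada value, 4.99, had the lowest neutrophil sum of its group, 237, and the highest Entpd1 value, 8.57. The wildtype I30 heart with a neutrophil sum of 429 had an Ada value of 4.44. In that group Ada values were nearly equal across sums of 131 to 429, while Entpd1 was highest where the sum was highest. Of 7 macrophage markers, 1, Cd14, rose in Per2-/- I30R60 hearts and 0 in wildtype I30R60 hearts, and their sum was 1471 to 1590 in Per2-/- I30R60 against 1206 to 1394 in Per2-/- sham hearts. The wildtype I30R60 heart with the Ada value of 5.73 also had the highest macrophage sum of the series, 1808. The Per2-/- I30R60 heart with the Entpd1 value of 8.57 and the Ada value of 4.99 had the highest macrophage sum of its group, 1590. In wildtype I30R60 hearts, Entpd1 values of 8.23, 8.13 and 8.02 stood beside macrophage sums of 1808, 1263 and 1421, in another order. Of 6 endothelium markers, 0 rose and 1, Kdr, fell in Per2-/- I30R60 hearts, where their sum was 3286 to 3818 against 3512 to 3818 in sham hearts. The part of these cells in the changes of Ada and Entpd1 was not tested.

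**Figure D3:**
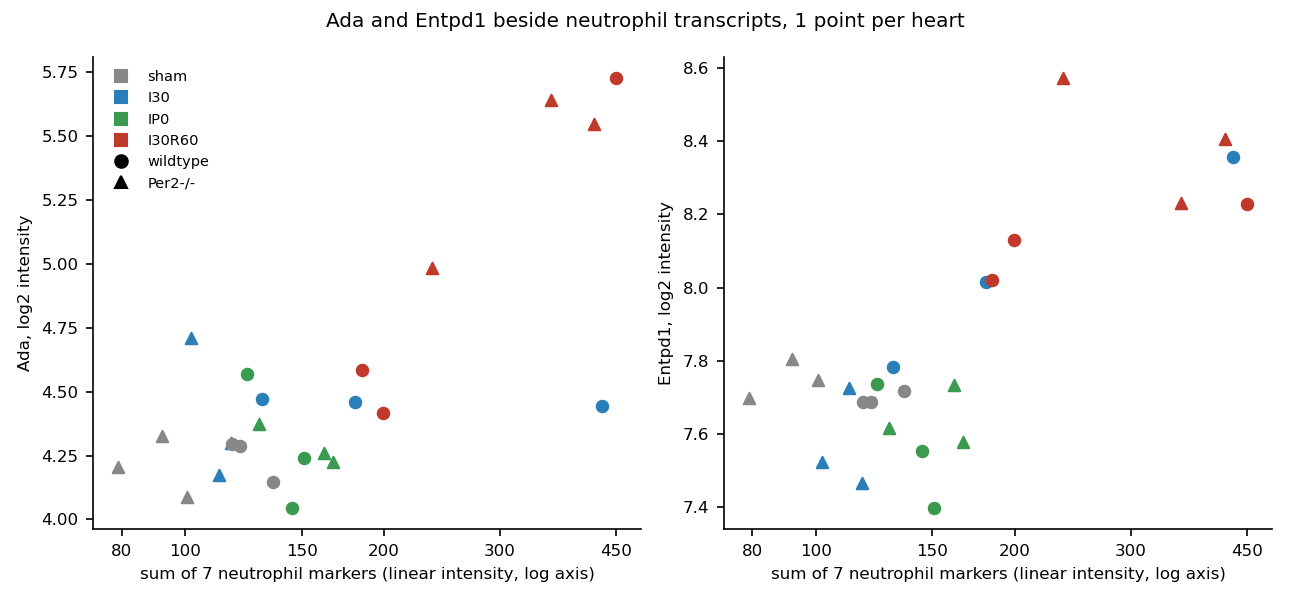
Log2 intensity of Ada and Entpd1 (vertical axes) against the summed linear intensity of 7 neutrophil markers (horizontal axes, log scale), with 1 point per heart for the 24 hearts of the 8 groups. The I30R60 hearts have sums of 185 to 450 and the sham hearts of 79.0 to 136, and the wildtype I30 heart at 429 has an Ada value of 4.44.

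Other genes of the series followed the group means of Entpd1 and Ada closely. Likeness was measured as the root mean square distance between the 8 group means of a gene and those of Entpd1 or Ada, each gene centred on its own mean. The nearest genes to Entpd1 were Cd302, a C-type lectin receptor, at 0.054, Spsb1, an adaptor of a ubiquitin ligase, at 0.068, and Pros1, the anticoagulant protein S, at 0.077 log2 units, where Entpd1's own spread around its mean was 0.287. The nearest to Ada were Cfap69 at 0.069, the chemokine Ccl17 at 0.103 and the copine Cpne8 at 0.104, where Ada's own spread was 0.390. Of these 6 genes, Spsb1, Cfap69, Ccl17 and Cpne8 were called in Per2-/- I30R60 against sham hearts, with log2 changes of 0.65, 1.21, 1.28 and 0.91 (adjusted p = 0.0109, 0.00175, 0.0104 and 0.00032). Cpne8 was called in wildtype I30R60 hearts too (0.65, adjusted p = 0.00999), and with the genotypes averaged all 6 were called, with changes of 0.35 to 0.96. They were picked for likeness over these same means, so that these changes are a description.

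Of 8 other genes that remove adenosine, AMP or inosine, 2 rose in Per2-/- I30R60 hearts, 1 rose in wildtype I30R60 hearts, and with the genotypes averaged 2 rose and 1 fell. Of all genes tested, 4.79%, 2.47% and 9.34% were called in these comparisons with sham. Pnp, the purine nucleoside phosphorylase that splits the inosine made by Ada, had log2 values of 5.76 to 5.88 in wildtype and 5.65 to 6.06 in Per2-/- sham hearts. After I30R60 it had 6.28 to 6.68 in wildtype and 6.51 to 6.72 in Per2-/- hearts, above every sham heart. Pnp rose by 0.61 (SE 0.16, adjusted p = 0.0442) in wildtype and by 0.76 (SE 0.16, adjusted p = 0.00626) in Per2-/- hearts, and by 0.69 with the genotypes averaged (SE 0.11, adjusted p = 0.000369). The call in wildtype hearts held in 16 of 34 alternatives, that in Per2-/- hearts in 32 of 34 and the averaged call in 33 of 33.

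AMP deaminases take AMP away from adenosine formation. Ampd3 had log2 values of 8.62 to 8.68 in Per2-/- sham and 8.89 to 9.29 in Per2-/- I30R60 hearts, and rose by 0.46 (SE 0.12, adjusted p = 0.0291, a call that held in 26 of 34 alternatives). In wildtype hearts it had 8.62 to 8.96 in sham and 9.02 to 9.20 in I30R60 hearts, a change of 0.29 (SE 0.12, adjusted p = 0.259). Ampd2 was called after ischemia without reperfusion, with 5.77 to 6.16 in wildtype sham and 5.44 to 5.59 in wildtype I30 hearts, and fell by 0.48 (SE 0.11, adjusted p = 0.0297, held in 25 of 34). Per2-/- I30 hearts, at 5.46 to 5.81, also lay below all Per2-/- sham hearts at 5.86 to 5.93, with a change of -0.31 that did not pass the test (SE 0.11, adjusted p = 0.611). Averaged over the genotypes, Ampd2 fell by 0.40 after I30 (SE 0.08, adjusted p = 0.0247, held in 26 of 33), and the interaction of genotype and I30 was 0.17 (adjusted p = 0.866). In wildtype I30R60 hearts it was back at 5.89 to 6.19. Adal, an adenosine deaminase-like enzyme, fell by 0.39 after I30R60 with the genotypes averaged (SE 0.11, adjusted p = 0.0342, held in 22 of 33).

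Of 6 genes of ATP release, 1 rose in Per2-/- I30R60 hearts, where 4.79% of all genes were called. This gene was Panx1, a channel through which ATP leaves the cell. Its log2 values were low, 3.87 to 4.25 in sham and 4.50 to 4.68 in I30R60 hearts, with a rise of 0.57 (SE 0.16, adjusted p = 0.0498). In wildtype hearts the I30R60 values of 4.49 to 4.60 also lay above the sham values of 3.80 to 4.43, with a change of 0.39 (SE 0.16, adjusted p = 0.273). The averaged rise was 0.48 (SE 0.11, adjusted p = 0.0103), and the Per2-/- call held in 12 of 33 alternatives and the averaged one in 31 of 32. Of 19 other genes of nucleotide hydrolysis and adenosine formation, 0 were called against sham in either genotype, with log2 changes of -0.27 to 0.23 after I30R60, and 1, the cytosolic nucleotidase Nt5c2, was lower in Per2-/- hearts over all treatments by 0.19 (SE 0.04, adjusted p = 0.0189, held in 31 of 33). Over all treatments, 1.88% of all genes were called between the genotypes. Of 5 other nucleoside transporters, 0 were called against sham.

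Receptors for nucleotides and the signalling branch below adenosine receptors were read by 15 and 22 genes. Of the 15 P2 nucleotide receptors, 0 were called in a comparison within 1 genotype with sham, and 1, P2ry6, a receptor for UDP, fell after I30 with the genotypes averaged, by 0.42 (SE 0.10, adjusted p = 0.0478, held in 10 of 33 alternatives). Of the 22 genes of G proteins, cyclases and cAMP signalling, 1 fell in wildtype I30R60 hearts, the cyclase Adcy6, by 0.38 (SE 0.10, adjusted p = 0.0485, held in 11 of 34). With the genotypes averaged, Adcy6 was called too after I30R60, with a fall of 0.25 that held in 24 of 33 alternatives. Adcy6 is named here because of its value. Gnai3, an inhibitory G protein subunit, rose by 0.36 after I30R60 with the genotypes averaged (SE 0.08, adjusted p = 0.00483, held in 32 of 33), as did the clock gene and CREB target Per1, by 0.27 (SE 0.08, adjusted p = 0.0403, held in 24 of 33). Over all treatments 2 of 22 were lower in Per2-/- hearts, Gnai1 by 0.34 (SE 0.06, adjusted p = 0.00311, held in 33 of 33) and the cyclase Adcy5 by 0.17 (SE 0.04, adjusted p = 0.0404, held in only 15 of 33). Per1 was higher by 0.26 (SE 0.06, adjusted p = 0.0202, held in 32 of 33). Of all genes tested, 1.61% were called after I30 and 9.34% after I30R60 with the genotypes averaged. The shares were 2.47% after I30R60 in wildtype hearts and 1.88% between the genotypes over all treatments.

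**Figure D4:**
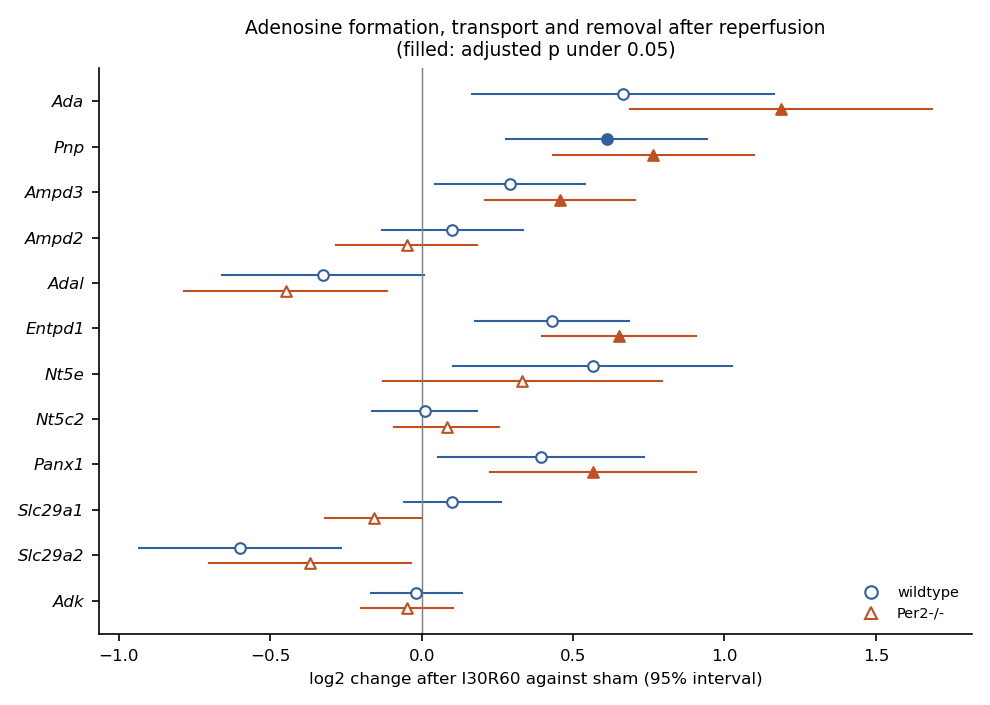
Log2 change after I30R60 against sham hearts of the same genotype (horizontal axis) with 95% intervals for genes of adenosine formation, transport and removal, in wildtype and Per2-/- hearts. Filled symbols passed the test, among them Ada (1.19), Entpd1 (0.65) and Ampd3 (0.46) in Per2-/- hearts and Pnp in wildtype (0.61) and Per2-/- hearts (0.76).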

How the data were processed

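RNA of 24 left ventricles, 1 mouse each, was read on Affymetrix Mouse Gene 1.1 ST arrays according to the methods (the design text names version 2.1, and the labels and methods name different RNA extraction kits). The authors imported CEL files into Partek Genomics Suite 6.6 and deposited RMA values on the log2 scale, which carry no detection calls. Of 35555 probe sets, 21218 are paired with 1 gene symbol, 1881 with several and 12456 are not listed with a symbol. Where a gene had several probe sets (1386 genes), the brightest by mean over all 24 arrays stood for it, giving 18820 genes.

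Groups were taken from the labels and compared with limma 3.58.1 in R 4.3.3, with a mean per group, 16 residual degrees of freedom, default moderation and, per comparison, Benjamini-Hochberg adjusted p values over all genes. The test was tried on simulated data. Sums of markers are of linear intensities. Tables and figures were made with Python 3.11.15, numpy 2.4.6, pandas 2.3.3 and matplotlib 3.10.9. Named were the 10 genes of the list, up to 4 called genes of each other list and, for the genes called against sham, the 3 genes nearest in group means. Adcy6 was named in addition to the 4 of its list, because of its value. The genes, lists and rules were chosen with earlier results of these data known. As alternatives, the fit was repeated on only the arrays compared, with other moderation, array weights or scaling, with dim genes removed, with another rule for probe sets, with a replicate block, with a t-test per gene, without the 4 arrays high in Myl7 and without each single array. The paper names Student's t-test for its data in general and does not say which test was used on the arrays.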

Additional observations from a re-analysis of the deposited data

Results flagged for a closer look

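After I30, Entpd1 values lay on opposite sides of the sham means in the 2 genotypes: all 3 wildtype hearts lay above the mean of their sham hearts and all 3 Per2-/- hearts lay below theirs, though neither change against sham passed the test (0.36, adjusted p = 0.117, and -0.18, adjusted p = 0.785, in limma). The interaction of genotype and I30 was -0.53 on the log2 scale (adjusted p = 0.495 in limma over all genes), so that the difference did not pass the test.

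Slc29a1 showed the same kind of split after both protocols. After I30 its interaction was -0.30 (limma adjusted p = 0.561), and after I30R60 it was -0.26 (limma adjusted p = 0.896). In both cases the 3 wildtype hearts lay above and the 3 Per2-/- hearts below the mean of their sham hearts, and the comparisons share the sham hearts. Wildtype I30R60 hearts, at 7.92 to 8.09, overlapped their sham hearts at 7.84 to 8.02. The lowest of them lay just above the sham mean (7.918 against 7.911). Against sham, the I30R60 changes were 0.10 in wildtype and -0.16 in Per2-/- hearts (limma adjusted p = 0.632 and 0.286). In wildtype I30 hearts, Entpd1 and Slc29a1 both followed the order of the lung epithelium sums (313, 122 and 70.1). The neutrophil and macrophage sums of these hearts had the same order. The part of these transcripts in the splits was not tested.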

How the results depend on the processing

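With 6 genes the counts of called genes are small. After I30R60 against sham in wildtype hearts, 2 of the 6 genes were called rather than 0 (Slc29a2 and Entpd1) with trend and robust moderation, with array weights and with genes above the median value only, and 1 with the replicate block (Slc29a2, adjusted p = 0.0406). The block changed no other count. The shares of all genes called under these alternatives are not given here, so that a changed count is no result about the 6 genes. The replicate numbers were not taken as pairs, as the labels do not pair hearts. The mean correlation of deviations from group means was 0.0203 for arrays with equal numbers and -0.0101 for the rest. All 3 correlations passed 0.1 in 1 of 28 group pairs. For 19 of 24 arrays the closest partner had an equal number, although such arrays are a minority of the possible partners. The source of this likeness was not tested. With trend and robust moderation or genes above the median value, 1 gene (Entpd1) differed between the genotypes after I30 rather than 0. With a t-test per gene and Benjamini-Hochberg adjustment, 0 genes were called in Per2-/- I30R60 hearts against sham, I30 or IP0 (2 each in limma), and 0 rather than 1 in wildtype I30R60 against IP0 and IP0 against I30. A fit to only the arrays compared gave 0 in these last 2 comparisons and 1 in Per2-/- I30R60 against I30. Without the 4 arrays high in Myl7, which were picked by their values, they gave 0 and Per2-/- I30R60 against IP0 gave 1. Centring arrays on their median gave 0 for wildtype IP0 against I30.

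When single arrays were left out, the counts ranged from 0 to 1 in wildtype I30 against sham, 0 to 2 in wildtype I30R60 against sham, 0 to 1 in the genotypes after I30, 0 to 1 in wildtype I30R60 against IP0 and in IP0 against I30, 1 to 2 in Per2-/- I30R60 against I30 and against IP0, and 3 to 4 in I30R60 against sham with the genotypes averaged, where Nt5e was the fourth. The rises of Ada and Entpd1 in Per2-/- I30R60 hearts against sham held in 33 of 34 alternatives each, all 24 left-out arrays included, and were lost with the t-test per gene (adjusted p = 0.196 and 0.169). Averaged over the genotypes they held in 33 of 33, and the fall of Slc29a2 in 32 of 33. No called change of the 6 genes turned its direction under any alternative. Another scaling moved the median change of all genes by at most 0.0752. Values of Ada and Panx1 lie near the median of all values, and the files carry no signal over background that would bound them.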
